A study of Homo sapiens with 18 samples.

Results

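TBX2 overexpression was compared with pooled controls in NCI-H1299, a lung cancer line of human origin. The comparison took the 3 libraries of cells given a TBX2 plasmid and 6 control libraries, 9 of the 18 libraries of the series, and the 15576 of 63677 counted genes whose count exceeded 5 in 10 or more of those 18. The study transfected these cells transiently, by lipofection, with plasmids for TBX2, TBX3, TBX4 or TBX5, and sequenced 3 libraries per plasmid. The 6 controls were 3 libraries of cells given an empty vector (EV), whose backbone is not given in the sources used here, and 3 libraries labelled Ctl, whose treatment the labels do not name. TBX2 and TBX4 were human proteins with a Flag tag from a pORF plasmid, while TBX3 was human and TBX5 mouse, each with an HA tag from a pCGN plasmid, so the T-box protein and the backbone cannot be told apart where TBX2 is set against TBX3 or TBX5. Of the libraries, 1 carries the sample number of the TBX4 libraries but a title ending in TBX5. It was taken as TBX4 replicate c by its number, and its TBX4 level, given below, lay between those of TBX4 replicates a and b. Nothing states that libraries of a group came from separate cultures, so p-values measure the spread between these samples, which may be technical. In bulk RNA, fewer cells of a kind and less RNA per cell cannot be told apart.

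TBX2 and its relatives are transcription factors that bind DNA through a shared T-box domain, and TBX2 and TBX3 are best known as repressors. TBX2 acts in heart, limb, mammary gland and lung development and is known for repressing inhibitors of the cell cycle.

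The TBX2 libraries held 7365221, 9146562 and 7395332 counts in replicates a, b and c. The controls held 8853984 to 11743179 counts, so TBX2 was the shallower group. Levels are given in CPM, read counts divided by a library size that TMM adjusts, a method that assumes most genes equal between libraries. The floor was set at 3 counts, which came to 0.302 to 0.487 CPM in the TBX2 libraries and covers counting error only. The most counted gene took 19.6% to 40.5% of counts in the TBX2 libraries and 12.4% to 40.2% in the controls. Mitochondrial genes took 17.1% to 22.8% with TBX2 and 14.3% to 19.6% in the controls, and the part of that share in the results was not tested. With the most counted gene left out, 2570 genes were higher and 2555 lower with TBX2, and 388 and 216 were set apart in the sense given below, close to the main counts. That run was scaled by TMM too, so it does not show what the gene's share does under another scale.

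The labels call the cells lung adenocarcinoma, and most markers of lung epithelium were near 0 in all 9 libraries. NKX2-1, a lung lineage factor, had at most 2 counts in any of them, the adhesion proteins EPCAM and CDH1 at most 3 and 2, and the surfactant genes SFTPA1 and SFTPA2 0. The mesenchymal filament gene VIM averaged 897 ± 40.5 CPM over the controls (SD, n = 6), and the simple-epithelium keratin KRT18 70.2 ± 5.40 CPM (SD, n = 6). With TBX2 they were at 723 ± 30.4 CPM (log2 fold change -0.31, edgeR adjusted p = 0.00103, a call lost by library totals) and 47.4 ± 4.27 CPM (log2 fold change -0.56, edgeR adjusted p = 7.83e-06), with SDs over 3 libraries. KRT8, the partner of KRT18, was at 37.7 ± 2.87 CPM in the controls and 21.6 ± 2.01 CPM with TBX2 (log2 fold change -0.79, edgeR adjusted p = 2.86e-07), and KRT7 went the other way, from 0.942 ± 0.479 CPM to 2.38 ± 0.532 CPM (log2 fold change 1.37, edgeR adjusted p = 0.00382). Of the endothelial, immune and fibroblast markers, none passed the filter, and CD3E had 0 and CDH5 at most 1 counts in any of the 9 libraries.

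With TBX2, 2651 genes (17.0% of the 15576 tested) were higher and 2428 (15.6%) lower than in the controls at an adjusted p under 0.1 in edgeR's quasi-likelihood test. Most of these changes were small, with a median absolute log2 fold change of 0.38, and 376 of the higher but 79 of the lower genes reached an absolute log2 fold change of 1. The same test called 1319 higher (8.47%) and 997 lower (6.40%) with TBX3, 1086 (6.97%) and 945 (6.07%) with TBX4, and 1021 (6.55%) and 954 (6.12%) with TBX5. EV against Ctl gave 44 higher (0.282%) and 16 lower (0.103%), 60 in all, but 22 without Ctl replicate b, 230 without Ctl replicate c and 29, 38 and 30 without EV replicate a, b or c. With library totals as the scale, 833 genes were higher and 220 lower with TBX2, so 79.1% of the calls were higher by totals and 52.2% by TMM.

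Being called with TBX2 and not with another plasmid is no test of a difference, so TBX2 was also set directly against each of them in 1 fit of all 18 libraries. TBX2 was higher than TBX3 for 1220 genes (7.83%) and lower for 1144 (7.34%), higher than TBX4 for 991 (6.36%) and lower for 829 (5.32%), and higher than TBX5 for 982 (6.30%) and lower for 860 (5.52%). A gene was called set apart with TBX2 when it differed from the controls and, in the same direction, from all 3 other plasmids. This held for 395 higher genes (2.54%) and 213 lower genes (1.37%), but by library totals for 41 and 0. Of the 395 and 213, 176 and 56 stayed set apart whichever of the 18 libraries was left out. The same rule set apart 168 (1.08%) and 19 (0.122%) with TBX3, 51 (0.327%) and 2 (0.0128%) with TBX5, and 1 and 1 (0.00642% each) with TBX4. Without the library whose title ends in TBX5, 354 higher and 180 lower genes were set apart with TBX2, and TBX2 against TBX4 called 1597 genes in place of 1820. Without TBX2 replicate c, 129 lower genes were set apart, and at an adjusted p under 0.05, 117. TBX2 against TBX4 called 1124 genes without TBX2 replicate c, 1171 without TBX4 replicate a and 1109 without TBX4 replicate b. By library totals, 169, 76 and 440 genes differed between TBX2 and TBX3, TBX4 and TBX5.

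**Figure D1:**
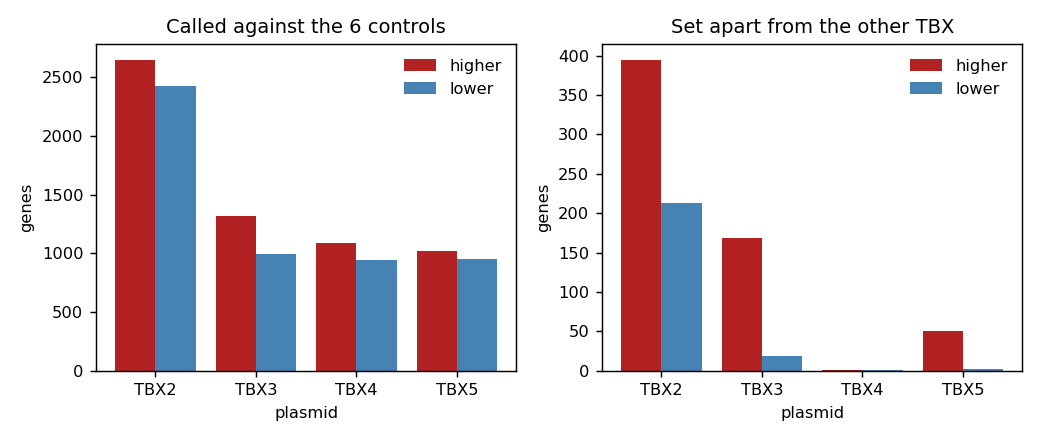
Bars give the number of genes called higher or lower against the 6 controls (left) and the number set apart from the other plasmids (right) for each TBX plasmid, counted among 15576 tested genes. TBX2 has the tallest bars in both panels, 2651 and 2428 genes on the left and 395 and 213 on the right.

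More of the set-apart genes were higher than lower. Their median log2 fold change against the controls was 0.77 for the higher and -0.52 for the lower set, against 0.00 over all tested genes. At the higher set, TBX3, TBX4 and TBX5 had medians of 0.12, 0.16 and 0.11 against the same controls, and at the lower set -0.12, -0.13 and -0.09. The sets were chosen to differ from those plasmids, so the smaller medians, and members lying beyond the other libraries, follow from that choice. Of all tested genes, 604 (3.88%) lay above and 365 (2.34%) below all 15 other libraries in every TBX2 library, and the set-apart genes held 356 and 173 of them. Of the 2651 higher genes, 1185 differed from none of the 3 other plasmids in the direct comparisons, as did 1200 of the 2428 lower genes. Protein-coding genes made up 90.1% of the higher and 91.1% of the lower set-apart genes, against 86.0% and 90.2% of the other called genes and 78.9% of all tested genes.

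TBX2, the overexpressed gene, was at 4086, 4821 and 4497 CPM in TBX2 replicates a, b and c, against 3.07 to 4.83 CPM (median 3.81) in the 6 controls and 2.59 to 4.83 CPM in the 9 libraries of the other TBX plasmids. Its 3 levels lay far above all 15 other libraries, which matches the label. TBX2 (ENSG00000121068, chromosome 17 from 59477204 to 59486827 on the plus strand of GRCh37, as are all gene positions given) had a log2 fold change of 10.19, and what share of its counts came from the plasmid was not tested. Of the 17 listed T-box genes, 9 were tested, 3 of them higher and 2 lower with TBX2. Over all tested genes 17.0% were higher and 15.6% lower. Library totals gave 2 higher and 0 lower T-box genes, and EV alone as controls 3 and 0. TBX4, a neighbour of TBX2 on chromosome 17, was at 1.95, 1.91 and 1.79 CPM in the TBX2 libraries and had at most 1 count in any control. The TBX3 libraries held 0.917, 1.51 and 0.422 CPM of it and the TBX5 libraries 1.22, 3.57 and 1.49 CPM, and the libraries of the TBX4 plasmid 7543, 8497 and 7888 CPM, so it could not be set apart as higher with TBX2. TBX3, the closest relative of TBX2, was at 2.18, 3.92 and 3.08 CPM in the TBX2 libraries and 1.37 to 3.33 CPM (median 2.31) in the controls, and the ranges overlapped.

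TBX2 differed from the other plasmids in interferon-stimulated genes, which cells are known to switch on after sensing interferon. Of 46 listed genes, 27 passed the filter, all 27 were higher with TBX2 than in the controls, and 23 were set apart, where 17.0% of all tested genes were higher and 2.54% set apart as higher. Their log2 fold changes ran from 0.36 to 3.57 with a median of 1.35, where TBX3, TBX4 and TBX5 had medians of 0.23, 0.20 and 0.20. In 22 of the 27, the 3 TBX2 libraries lay above all 15 others, as they did for 3.88% of all tested genes. EV was higher than Ctl for 9 of the 27 genes, so the controls differed among themselves here; against EV alone, 26 were higher with TBX2 and 23 set apart. By library totals 25 were higher and 12 set apart. The 4 higher genes that were not set apart were ISG20, IFI27, IFIT3 and STAT2, chosen after their values were seen.

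IFI6, a small membrane protein induced by type I interferon, was at 40.0, 43.8 and 38.3 CPM in TBX2 replicates a, b and c, against 2.16 to 4.34 CPM (median 3.42) in the 6 controls and 2.78 to 5.65 CPM in the 9 libraries of the other TBX plasmids. All 3 TBX2 levels lay above every other library. IFI6 had a log2 fold change of 3.57 (standard error 0.113, edgeR adjusted p = 1.68e-16), and other genes overlap 23.1% of its exon bases (ENSG00000126709, chromosome 1 from 27992575 to 27998723 on the minus strand). ISG15, a ubiquitin-like modifier, was at 42.6, 44.4 and 36.7 CPM in TBX2 replicates a, b and c, against 3.67 to 12.8 CPM (median 7.65) in the 6 controls and 9.83 to 15.4 CPM in the 9 libraries of the other TBX plasmids. The EV libraries were at 11.7 ± 1.30 CPM (SD, n = 3) and Ctl at 4.40 ± 0.674 CPM (SD, n = 3), and the TBX2 libraries exceeded both. ISG15 had a log2 fold change of 2.34 (standard error 0.210, edgeR adjusted p = 2.02e-08). OAS3, an enzyme that makes the 2-5A signal of viral RNA, was at 103, 101 and 104 CPM in TBX2 replicates a, b and c, against 23.7 to 28.9 CPM (median 27.4) in the 6 controls and 23.4 to 29.2 CPM in the 9 libraries of the other TBX plasmids. TBX2 libraries held levels close to each other and clear of the rest. OAS3 had a log2 fold change of 1.94 (standard error 0.0656, edgeR adjusted p = 3.74e-16).

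**Figure D2:**
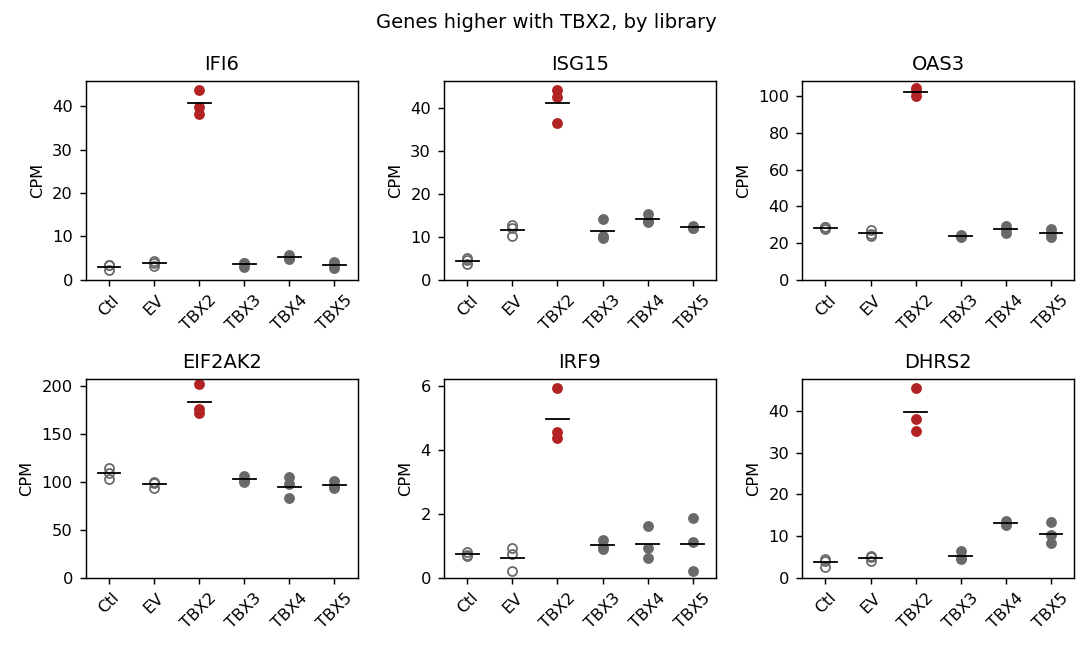
Each point is the CPM of 1 library, by group along the x axis, for IFI6, ISG15, OAS3, EIF2AK2, IRF9 and DHRS2, with the group mean as a line. The 3 TBX2 points lie above all 15 others in each panel.

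IRF9, a DNA-binding factor of this response, was at 4.36, 5.94 and 4.55 CPM in TBX2 replicates a, b and c, against 0.191 to 0.914 CPM (median 0.731) in the 6 controls and 0.198 to 1.86 CPM in the 9 libraries of the other TBX plasmids. Every TBX2 library was above all others, though counts were low, and other genes overlap 27.2% of IRF9's exon bases. IRF9 had a log2 fold change of 2.96 (standard error 0.267, edgeR adjusted p = 2.15e-08). EIF2AK2, the kinase PKR, which senses double-stranded RNA, was at 175, 172 and 201 CPM in TBX2 replicates a, b and c, against 93.3 to 115 CPM (median 101) in the 6 controls and 82.5 to 106 CPM in the 9 libraries of the other TBX plasmids. EIF2AK2 had a log2 fold change of 0.82 (standard error 0.0674, edgeR adjusted p = 4.95e-09). OASL, an OAS relative without the enzyme activity, was at 2.64, 3.22 and 2.44 CPM in TBX2 replicates a, b and c, against 0 to 1.14 CPM (median 0.215) in the 6 controls and 0.372 to 1.04 CPM in the 9 libraries of the other TBX plasmids. Its highest control, at 1.14 CPM, stayed below the lowest TBX2 library. The call was lost with DESeq2, and the size of the change differed over 1.5 times between the controls, with EV at 0.800 ± 0.357 CPM and Ctl at 0 ± 0 CPM (SD, n = 3 each).

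The interferon-stimulated response element, GAAANNGAAA, is the stretch of promoter that IRF factors bind. It was searched on both strands of the 300 bases around each start site in RefSeq, from 250 before to 50 after it. Of the 27 tested interferon-stimulated genes, 22 had a promoter in the table, and 15 of these (68.2%) held the letters, against 996 of 27305 (3.65%) of all promoters. Over all tested genes with a promoter, 294 of 10735 (2.74%) held them. The list is of known interferon-stimulated genes, so its high share follows from how it was made and says nothing about TBX2. The windows show IFI6, ISG15 and OAS3, whose values are given above, in GRCh38.p14 with the matches in capitals: IFI6 at chr1:27672273-27672373 on the minus strand, with 3 matches, ISG15 at chr1:1013359-1013424 on the plus strand, with 2 overlapping ones, and OAS3 at chr12:112938306-112938365 on the plus strand, where 1 of its 2 matches lies.
IFI6: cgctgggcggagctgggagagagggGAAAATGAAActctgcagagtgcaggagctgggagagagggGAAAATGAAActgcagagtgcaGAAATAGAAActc
ISG15: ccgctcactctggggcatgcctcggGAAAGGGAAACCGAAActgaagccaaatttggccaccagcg
OAS3: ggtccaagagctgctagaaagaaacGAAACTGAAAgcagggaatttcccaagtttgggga IRF9's window held no match, which says only that these letters are not in it. A match is a description, not a binding site. For the T-box element AGGTGTGA, 2 of 174 set-apart lower genes with a promoter held it, against 268 of 27305 (0.982%) of all promoters and 78 of 10735 (0.727%) of tested genes with one. Among the set-apart higher genes, 0 of the 294 with a promoter held it. The rest of the 395 had no promoter in the table and could not be searched, so nothing is concluded for the set.

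The filter left some interferon-stimulated genes out of the main test, since a gene counted in 3 libraries cannot pass a filter of 10 libraries. MX1, a GTPase against RNA viruses, had 56, 60 and 30 counts in TBX2 replicates a, b and c, at most 9 in any control and at most 11 in any library of the other plasmids. OAS2, another 2-5A enzyme, had 33, 31 and 22 counts against at most 1 and 2. OAS1, its relative, had 8, 14 and 5 counts, against at most 1 and 2. In the fit with no filter all 3 were called higher and set apart, with log2 fold changes of 3.97, 6.93 and 5.27 that rest on few control counts. IFNB1, the interferon beta gene, had 2 counts in TBX2 replicate a and none in b and c, and IFNL1, IFNL2 and IFNL3 had none in the TBX2 libraries. These 7 genes were chosen after their values were seen. Of the 19 untested interferon-stimulated genes, MX2, IFI44L and SAMD9L were also set apart in the fit with no filter, and the others were not. DHX58, CXCL10 and IFNB1 were not called in it (edgeR adjusted p = 0.159, 0.746 and 0.209). BST2 was called higher but not set apart (log2 fold change 1.52, edgeR adjusted p = 0.0199). It had at most 9 counts in a TBX2 library and 12 in a library of another plasmid. IFI16, TRIM22, CMPK2, RSAD2 and CXCL11 were also called higher but not set apart, on at most 4 counts in any TBX2 library. Across the whole table, 118 of the 48101 untested genes had more than 5 counts in all 3 TBX2 libraries, and in 41 of them all 3 TBX2 counts lay above those of the 15 others, a count also taken after the data were seen. Genes that fail the filter yet are counted in every TBX2 library tend to be high there by that choice, so nothing is concluded from the 41. For the same reason, the calls of MX1, OAS2, OAS1 and the other untested interferon-stimulated genes are not used as support.

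The integrated stress response, in which the kinases of eIF2 lead to the factor ATF4 and to amino acid supply genes, had 19 of 24 tested members higher and 0 lower, 10 of them set apart, with a median log2 fold change of 0.73 and medians of 0.21, 0.00 and -0.11 with TBX3, TBX4 and TBX5. TBX3 had 13 of the 24 higher and TBX4 4, TBX5 had 2 higher and 5 lower, and EV was higher than Ctl for 4. Of all tested genes 17.0% were higher and 2.54% set apart as higher with TBX2. SLC7A11, the cystine transporter, was at 55.8, 57.9 and 55.8 CPM in TBX2 replicates a, b and c, against 19.8 to 27.3 CPM (median 23.4) in the 6 controls and 18.2 to 32.9 CPM in the 9 libraries of the other TBX plasmids. Replicates differed little, and all exceeded the other 15 libraries. SLC7A11 had a log2 fold change of 1.28 (standard error 0.0774, edgeR adjusted p = 2.5e-11). TRIB3, a pseudokinase induced by ATF4, was at 27.2, 29.1 and 23.4 CPM in TBX2 replicates a, b and c, against 6.74 to 11.5 CPM (median 9.32) in the 6 controls and 7.66 to 17.2 CPM in the 9 libraries of the other TBX plasmids. TRIB3 had a log2 fold change of 1.54 (standard error 0.140, edgeR adjusted p = 2.48e-08). ASNS, asparagine synthetase, was at 172, 161 and 173 CPM in TBX2 replicates a, b and c, against 67.1 to 89.2 CPM (median 78.3) in the 6 controls and 56.6 to 93.9 CPM in the 9 libraries of the other TBX plasmids. Other genes overlap 49.3% of its exon bases, so its level is uncertain. CEBPB, a partner factor, had a log2 fold change of 1.15 (edgeR adjusted p = 1.29e-05). By library totals 13 of the list were higher and 1 set apart.

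The unfolded protein response, which the endoplasmic reticulum starts when proteins misfold, had 12 of 20 tested members higher and 0 lower, against 17.0% and 15.6% over all tested genes. Of its members 4 were set apart as higher, against 2.54% of all tested genes. By library totals 6 were higher and none set apart. The median was 0.24, where TBX3, TBX4 and TBX5 had 0.08, 0.20 and 0.22 and EV against Ctl 0.20, so TBX4, TBX5 and EV came close to TBX2. HSPA5, the main chaperone of the endoplasmic reticulum, was at 282, 189 and 357 CPM in TBX2 replicates a, b and c, against 103 to 169 CPM (median 134) in the 6 controls and 125 to 194 CPM in the 9 libraries of the other TBX plasmids. TBX2 replicate b was the lowest of the 3 and within the range of the other plasmids. XBP1, a transcription factor of this response, was at 33.8, 35.4 and 38.1 CPM in TBX2 replicates a, b and c, against 20.2 to 24.4 CPM (median 22.6) in the 6 controls and 22.8 to 29.2 CPM in the 9 libraries of the other TBX plasmids. All 3 TBX2 libraries exceeded the rest. Of NF-kappaB pathway genes, 13 of 23 were higher, none lower, and 7 set apart, by library totals 8 higher and 0 set apart. Over all tested genes 17.0% were higher and 2.54% set apart as higher. TBX3, TBX4 and TBX5 had 5, 5 and 5 higher members. NFKB2, a subunit of the noncanonical branch, was at 89.8, 88.2 and 80.7 CPM in TBX2 replicates a, b and c, against 49.1 to 60.8 CPM (median 55.8) in the 6 controls and 56.2 to 71.7 CPM in the 9 libraries of the other TBX plasmids. NFKB2 had a log2 fold change of 0.66 (standard error 0.0688, edgeR adjusted p = 2.11e-07). TRAF1, an adaptor of TNF receptors, was at 35.7, 39.0 and 31.0 CPM in TBX2 replicates a, b and c, against 18.4 to 27.6 CPM (median 21.8) in the 6 controls and 23.7 to 29.4 CPM in the 9 libraries of the other TBX plasmids. The TBX2 libraries again lay above the other 15.

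Immediate-early genes, which signals switch on without new protein, had 11 of 29 tested members higher and 3 lower and 3 set apart, by library totals 9, 0 and 1. Over all tested genes 17.0% were higher, 15.6% lower and 2.54% set apart as higher, to which the other lists of this paragraph compare as well. TBX3 had a larger median there, 0.50 against 0.32 with TBX2, and EV against Ctl gave 0.30. MAFF, a small bZIP factor, was at 18.6, 29.3 and 19.5 CPM in TBX2 replicates a, b and c, against 4.90 to 10.4 CPM (median 7.40) in the 6 controls and 8.43 to 17.3 CPM in the 9 libraries of the other TBX plasmids. MAFF and KLF10, a Krüppel-like factor, were set apart, and so was EGR1. EGR1, a zinc finger factor, was at 75.7, 72.3 and 106 CPM in TBX2 replicates a, b and c, against 5.15 to 12.7 CPM (median 6.43) in the 6 controls and 14.3 to 55.2 CPM in the 9 libraries of the other TBX plasmids. EGR1 had a log2 fold change of 3.45 (standard error 0.162, edgeR adjusted p = 2.15e-13), among the largest of the named genes, and all 9 libraries of the other plasmids also held more of it than any control, most with TBX3, at 38.5 to 55.2 CPM. KLF10 was at 108, 115 and 127 CPM in TBX2 replicates a, b and c, against 53.2 to 62.4 CPM (median 59.4) in the 6 controls and 55.7 to 85.5 CPM in the 9 libraries of the other TBX plasmids. Of lysosome and autophagy genes, 20 of 47 were higher, 4 lower and 7 set apart, but by library totals 5 were higher and none set apart. TBX3, TBX4 and TBX5 had 10, 11 and 12 higher members. MAP1LC3B, the autophagosome protein LC3B, was at 113, 79.3 and 137 CPM in TBX2 replicates a, b and c, against 31.0 to 46.4 CPM (median 42.0) in the 6 controls and 44.4 to 62.2 CPM in the 9 libraries of the other TBX plasmids. Replicate b was lowest here too. NEU1, a lysosomal sialidase, was at 34.7, 43.9 and 37.8 CPM in TBX2 replicates a, b and c, against 15.2 to 19.0 CPM (median 16.5) in the 6 controls and 21.0 to 33.3 CPM in the 9 libraries of the other TBX plasmids. NRF2 genes, which answer oxidants, were mixed, with 10 of 26 tested members higher and 6 lower, by library totals 6 and 1. HMOX1, heme oxygenase, was at 19.6, 19.3 and 17.7 CPM in TBX2 replicates a, b and c, against 7.35 to 9.83 CPM (median 8.15) in the 6 controls and 9.85 to 13.5 CPM in the 9 libraries of the other TBX plasmids. Every TBX2 library exceeded the others.

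Among the other large changes were genes outside the lists, and ZNF425 and HEY1, members of lists given below. LDLRAD4, a membrane protein that dampens TGF-beta signalling, was at 9.42, 10.9 and 9.90 CPM in TBX2 replicates a, b and c, against 0.298 to 1.15 CPM (median 0.698) in the 6 controls and 0 to 1.48 CPM in the 9 libraries of the other TBX plasmids. It was the largest change after TBX2 itself among the named genes set apart in the main test, which leaves out genes that failed the filter. LDLRAD4 had a log2 fold change of 3.70 (standard error 0.201, edgeR adjusted p = 3.84e-12) (ENSG00000168675, chromosome 18 from 13217497 to 13652754 on the plus strand). DHRS2, a short-chain dehydrogenase, was at 35.4, 45.7 and 38.1 CPM in TBX2 replicates a, b and c, against 2.65 to 5.15 CPM (median 4.18) in the 6 controls and 4.37 to 13.5 CPM in the 9 libraries of the other TBX plasmids. The TBX4 and TBX5 libraries also held more of it than the controls did, up to 13.5 CPM, and every TBX2 library exceeded them. DHRS2 had a log2 fold change of 3.23 (standard error 0.122, edgeR adjusted p = 3.25e-15) (ENSG00000100867, chromosome 14 from 24099324 to 24114848 on the plus strand). ARRDC4, an alpha-arrestin, was at 6.55, 5.94 and 6.98 CPM in TBX2 replicates a, b and c, against 0.298 to 1.15 CPM (median 0.694) in the 6 controls and 0.888 to 2.67 CPM in the 9 libraries of the other TBX plasmids. GRIN2B, an NMDA receptor subunit, was at 10.6, 8.25 and 10.1 CPM in TBX2 replicates a, b and c, against 1.07 to 1.86 CPM (median 1.47) in the 6 controls and 0.999 to 2.49 CPM in the 9 libraries of the other TBX plasmids. Neither gene's TBX2 range met that of the other libraries. ZNF425, a zinc finger gene, was at 4.13, 5.63 and 4.55 CPM in TBX2 replicates a, b and c, against 0.457 to 1.08 CPM (median 0.673) in the 6 controls and 0.703 to 2.61 CPM in the 9 libraries of the other TBX plasmids. HEY1, a Notch target and transcriptional repressor, was at 4.36, 3.42 and 4.22 CPM in TBX2 replicates a, b and c, against 0.392 to 1.09 CPM (median 0.751) in the 6 controls and 0.633 to 2.42 CPM in the 9 libraries of the other TBX plasmids. HEY1 differed from TBX3, TBX4 and TBX5 by log2 2.27, 1.76 and 1.29.

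Genes of sterol and fatty acid synthesis were lower. Of 33 tested genes, 27 were lower with TBX2, none higher, and 6 set apart, with a median log2 fold change of -0.50, where 15.6% of all tested genes were lower and 1.37% set apart as lower. Against the same controls 12, 23 and 22 were lower with TBX3, TBX4 and TBX5, with medians of -0.21, -0.34 and -0.42, and EV was lower than Ctl for 5. By library totals 14 were lower and none set apart. SCD, the enzyme that makes monounsaturated fatty acids, was at 152, 139 and 134 CPM in TBX2 replicates a, b and c, against 353 to 512 CPM (median 411) in the 6 controls and 220.0 to 380.2 CPM in the 9 libraries of the other TBX plasmids. EV was at 359 ± 4.68 CPM and Ctl at 488 ± 26.7 CPM (SD, n = 3 each), and the TBX2 libraries lay below both. SCD had a log2 fold change of -1.58 (standard error 0.111, edgeR adjusted p = 4.52e-10), and TBX2 was lower than TBX3, TBX4 and TBX5 by log2 values of -1.31, -0.68 and -0.71.

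SREBF1, the factor that drives fatty acid genes, was at 40.2, 33.1 and 31.0 CPM in TBX2 replicates a, b and c, against 65.8 to 113 CPM (median 88.3) in the 6 controls and 43.0 to 77.4 CPM in the 9 libraries of the other TBX plasmids. The controls differed here, with EV at 69.2 ± 3.83 CPM and Ctl at 107 ± 5.18 CPM (SD, n = 3 each), and every TBX2 library was below both. LSS, lanosterol synthase, an enzyme of cholesterol synthesis, was at 23.9, 22.0 and 17.0 CPM in TBX2 replicates a, b and c, against 36.8 to 54.2 CPM (median 46.7) in the 6 controls and 25.1 to 35.8 CPM in the 9 libraries of the other TBX plasmids. TBX2 replicate c was the lowest.

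**Figure D3:**
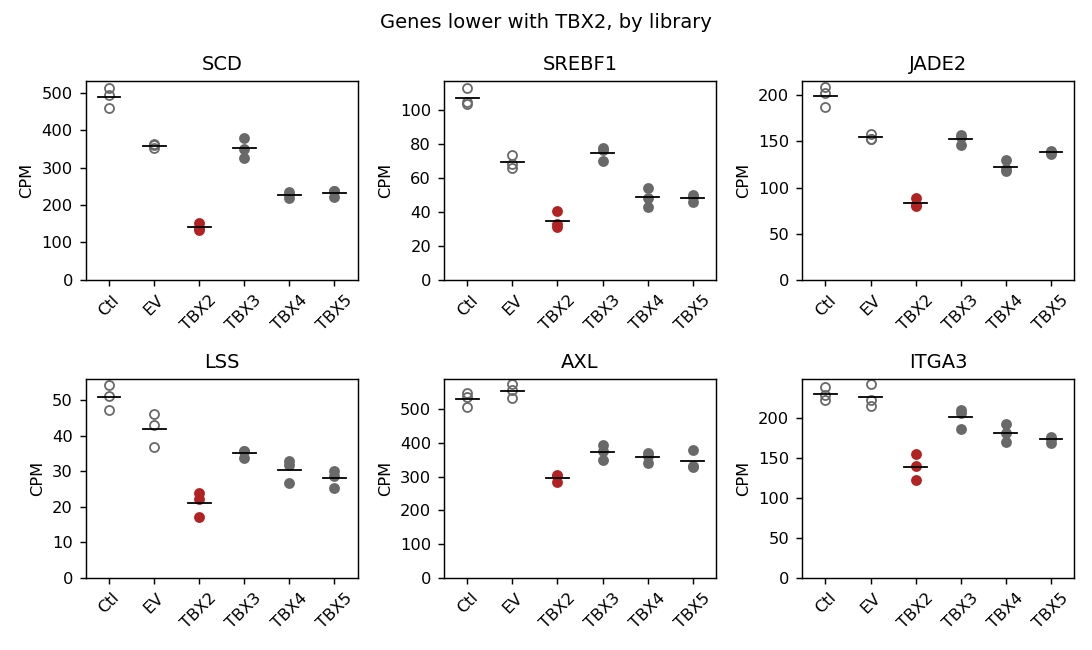
Each point is the CPM of 1 library, by group along the x axis, for SCD, SREBF1, JADE2, LSS, AXL and ITGA3, with the group mean as a line. The 3 TBX2 points lie below all 15 others in each panel, and the other TBX groups lie between TBX2 and the highest control.

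Of matrix, integrin and focal adhesion genes, 20 of 50 were lower, 9 higher and 6 lower genes set apart. Over all tested genes 15.6% were lower and 17.0% higher, and 1.37% were set apart as lower and 2.54% as higher. Of the 9 higher members 2 were set apart. By library totals 5 were lower and 3 higher, and the 1 member set apart was higher. TBX3, TBX4 and TBX5 had 15, 11 and 8 lower members. Of the genes given next, ITGA3 was named from this list, and AXL, VCAN, JADE2 and ANXA1 by other rules. AXL, a receptor tyrosine kinase, was at 303, 302 and 285 CPM in TBX2 replicates a, b and c, against 507 to 576 CPM (median 543) in the 6 controls and 328 to 395 CPM in the 9 libraries of the other TBX plasmids. All 6 controls were higher than every TBX2 library. AXL had a log2 fold change of -0.87 (standard error 0.0635, edgeR adjusted p = 7.67e-10). ITGA3, an integrin subunit, was at 154, 140.1 and 122 CPM in TBX2 replicates a, b and c, against 215 to 243 CPM (median 225) in the 6 controls and 169 to 209.9 CPM in the 9 libraries of the other TBX plasmids. VCAN, the matrix proteoglycan versican, was at 11.1, 13.1 and 13.5 CPM in TBX2 replicates a, b and c, against 20.9 to 24.2 CPM (median 23.3) in the 6 controls and 17.0 to 25.8 CPM in the 9 libraries of the other TBX plasmids. TBX2 levels lay below those of the other plasmids for both. JADE2, a PHD finger protein of histone acetylation complexes, was at 88.8, 81.0 and 79.9 CPM in TBX2 replicates a, b and c, against 153 to 209 CPM (median 172) in the 6 controls and 118 to 156 CPM in the 9 libraries of the other TBX plasmids. JADE2 had a log2 fold change of -1.09 (standard error 0.0964, edgeR adjusted p = 1.75e-08). ANXA1, a phospholipid-binding protein, was at 41.2, 50.3 and 44.6 CPM in TBX2 replicates a, b and c, against 82.2 to 96.6 CPM (median 87.0) in the 6 controls and 43.5 to 60.3 CPM in the 9 libraries of the other TBX plasmids. It was lower against the controls with edgeR adjusted p = 2.57e-09 and was not set apart.

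Of DNA replication genes, 25 of 45 were lower and none set apart, of mitosis genes 27 of 45 and 3 set apart, and of replication-dependent histones 23 of 30 and 3 set apart. Cytoplasmic ribosomal proteins had 46 of 81 lower. Of all tested genes 15.6% were lower and 1.37% set apart as lower. By library totals these 4 lists had 1, 2, 6 and 1 lower members, while their medians stayed below 0. TBX5 had 15, 19, 17 and 12 lower members, TBX4 6, 12, 8 and 5 and TBX3 8, 12, 13 and 31. The mitosis median was -0.17 with TBX2, -0.08, -0.12 and -0.15 with TBX3, TBX4 and TBX5 and -0.10 for EV against Ctl. Against EV alone, 15 mitosis genes were lower and 4 higher with TBX2, where the pooled controls gave 27 and 1. H3C12, a histone H3 gene, was at 20.1, 15.9 and 18.5 CPM in TBX2 replicates a, b and c, against 33.9 to 39.8 CPM (median 37.2) in the 6 controls and 22.5 to 30.2 CPM in the 9 libraries of the other TBX plasmids. Other genes overlap 40.3% of its exon bases. KIF20A, a kinesin of cell division, was at 85.3, 97.7 and 81.7 CPM in TBX2 replicates a, b and c, against 123 to 141 CPM (median 124) in the 6 controls and 109 to 129 CPM in the 9 libraries of the other TBX plasmids. EEF1A1, the elongation factor that brings tRNA to the ribosome, was at 3489, 4018 and 3197 CPM in TBX2 replicates a, b and c, against 5019.9 to 5725 CPM (median 5188) in the 6 controls and 4088 to 4957 CPM in the 9 libraries of the other TBX plasmids. Both genes had every TBX2 library below all 15 others. EEF1A1, ribosomal protein and histone genes have near-identical copies, so their levels are uncertain. Of glycolysis and hypoxia genes, 14 of 31 were lower and 4 higher, by library totals 4 and 2, against 15.6% lower and 17.0% higher over all tested genes. TBX3, TBX4 and TBX5 had 12, 1 and 6 lower members. GPI, a glycolytic isomerase, was at 149.5, 141 and 138 CPM in TBX2 replicates a, b and c, against 199 to 224 CPM (median 211) in the 6 controls and 167 to 197 CPM in the 9 libraries of the other TBX plasmids.

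Of 15 listed genes described as targets of TBX2 in other cells, 6 were tested, 1 was higher, 2 were lower and none was set apart, against 17.0% higher and 15.6% lower over all tested genes. By library totals none was called. CDKN1A was the higher one. CDKN2A, an inhibitor of CDK4, was at 25.4, 21.4 and 17.5 CPM in TBX2 replicates a, b and c, against 24.7 to 32.0 CPM (median 27.5) in the 6 controls and 21.0 to 27.9 CPM in the 9 libraries of the other TBX plasmids. The TBX2 and control ranges met. CDKN2A had a log2 fold change of -0.35 (standard error 0.102, edgeR adjusted p = 0.0138).

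**Figure D4:**
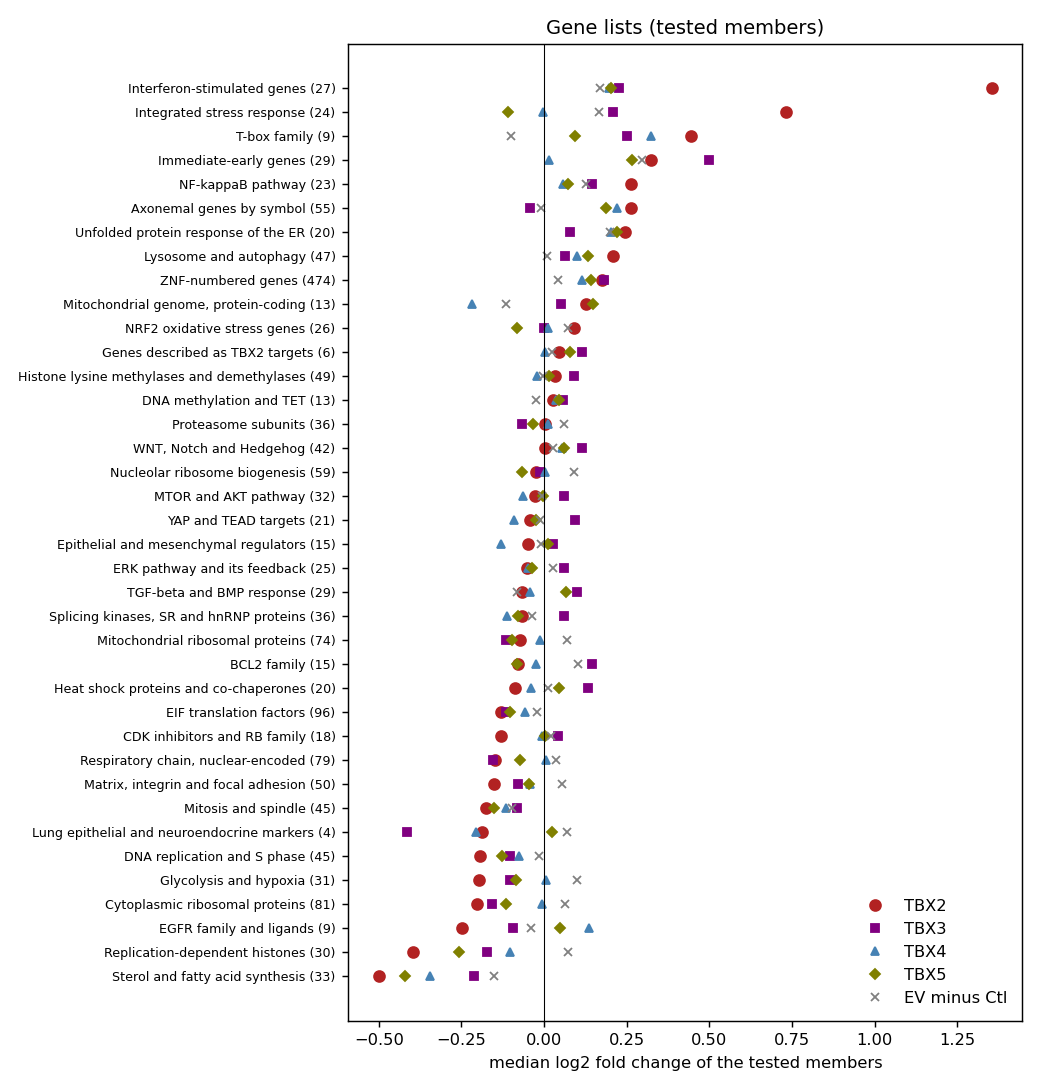
Each point is the median log2 fold change of a list's tested members, against the 6 controls for the TBX plasmids and against Ctl for EV, with the number of tested members in brackets. The interferon list stands at 1.35 for TBX2 and near 0.2 for the other plasmids.

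The remaining lists are given by their counts of called members, to be read against 17.0% higher and 15.6% lower over all tested genes. Zinc finger genes with a ZNF number had 174 of 474 tested members higher and 25 lower, and nuclear-encoded respiratory chain genes 3 of 79 tested members higher and 30 lower. The ZNF list shifted with every plasmid, with 141, 98 and 91 members higher and medians of 0.18, 0.11 and 0.14 with TBX3, TBX4 and TBX5 and 0.17 with TBX2. Heat shock proteins had 1 of 20 tested members higher and 6 lower, and splicing genes 5 of 36 tested members higher and 12 lower. Histone lysine methylases and demethylases had 12 of 49 tested members higher and 9 lower, and ERK pathway genes 2 of 25 tested members higher and 5 lower. EGFR family genes had 1 of 9 tested members higher and 4 lower, and TGF-beta and BMP genes 5 of 29 tested members higher and 8 lower. YAP and TEAD targets had 3 of 21 tested members higher and 8 lower. EGFR, the receptor of epidermal growth factor, was at 72.2, 66.1 and 71.1 CPM in TBX2 replicates a, b and c, against 88.7 to 95.3 CPM (median 92.5) in the 6 controls and 76.5 to 87.6 CPM in the 9 libraries of the other TBX plasmids. EGFR was the 1 set-apart member of the EGFR family list, where 1.37% of all tested genes were set apart as lower. CDK inhibitors and RB family genes had 3 of 18 tested members higher and 7 lower, and BCL2 family genes 4 of 15 tested members higher and 1 lower. Epithelial and mesenchymal regulators had 4 of 15 tested members higher and 5 lower, and WNT, Notch and Hedgehog genes 3 of 42 tested members higher and 6 lower. DNA methylation and TET genes had 3 of 13 tested members higher and 3 lower, and MTOR and AKT genes 7 of 32 tested members higher and 6 lower. Mitochondrial ribosomal proteins had 6 of 74 tested members higher and 20 lower, and the protein-coding genes of the mitochondrial genome 0 of 13 tested members higher and 1 lower. Proteasome subunits had 4 of 36 tested members higher and 6 lower, and nucleolar ribosome biogenesis genes 11 of 59 tested members higher and 7 lower. Genes with an EIF or EEF symbol, pseudogenes and the kinase gene EIF2AK2 included, had 5 of 96 tested members higher and 29 lower. Axonemal genes, a family formed by symbol after values were seen, had 26 of 55 tested members higher and 2 lower. By library totals ZNF genes had 59 higher and 6 lower members, axonemal genes 19 and 0 and respiratory chain genes 0 and 2, and no other list of this paragraph kept more than 3 higher or 2 lower members.

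Set-apart lower genes were unevenly placed. On chromosomes other than 19, they made up from 0% (13 and 22) to 2.63% (21) of the tested genes. Chromosome 19 held 42 of the 213, or 3.89% of its 1079 tested genes, against 1.37% over all chromosomes. It was chosen after values were seen, as the chromosome with the most of them. Its part from 30 to 51 Mb, a region chosen after values were seen, had 117 lower and 28 higher of 316 genes other than ZNF genes, with a median log2 fold change of -0.21, against 15.6% lower and 17.0% higher over all tested genes. From 0 to 30 Mb, 108 of 413 such genes were lower and 35 higher, with a median of -0.12. The part from 51 to 60 Mb had 17 of 93 such genes lower and 10 higher, with a median of 0.02. Between 30 and 51 Mb, TBX3, TBX4 and TBX5 had medians of -0.08, -0.12 and -0.10 for such genes, and EV against Ctl 0.07. The 71 ZNF genes there had 9 lower and 17 higher members with TBX2 and a median of 0.11. Their medians were 0.33, 0.14 and 0.10 with TBX3, TBX4 and TBX5 and 0.16 for EV against Ctl. A small number of genes went one way with TBX2 and the other way with another plasmid against the same controls, 30 with TBX3, 18 with TBX4 and 60 with TBX5. ANKRD20A5P, a pseudogene on chromosome 18, was at 27.3, 23.6 and 26.8 CPM with TBX2, 43.4 to 49.8 CPM (median 45.6) in the controls and up to 95.1 CPM with the other plasmids, and other genes overlap 68.5% of its exon bases.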

How the data were processed

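RNA-seq counts of 18 libraries were used. Per the methods and the labels, STAR 2.3.0 placed read pairs on GRCh37, and the authors deposited the featureCounts count of each Ensembl gene, neither normalized nor filtered; strand is not given in the sources used here. Groups and replicate letters came from the titles. Genes whose count exceeded 5 in 10 or more libraries were tested with edgeR 4.0.16 (R 4.3.3) by the quasi-likelihood test, with TMM scaling, Benjamini-Hochberg adjustment and an adjusted p under 0.1. TBX2 was fitted with the 6 controls alone, and against each other plasmid in 1 fit of all libraries. DESeq2 1.42.0, other scalings, filters, controls and left-out libraries were alternatives. Symbols and positions came from GENCODE 44, promoters from RefSeq. The method was tested on simulated data, where it missed some changed genes with few counts; the pass rule was then limited to genes with more counts, and the method was left as it was.

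Genes were named by rule: T-box genes, the 12 largest set-apart changes in each direction with a mean of at least 2 CPM and beyond all 15 other libraries, the 5 smallest p per direction, up to 4 called members per list and direction, the 6 largest opposite changes, described TBX2 targets and markers; some are not reported here. Members and lists were chosen with earlier results of these data known.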

Additional observations from a re-analysis of the deposited data

Results flagged for a closer look

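Among the 261 tested genes that could be named, 19 had 1 control library far from the other 5, judged by its gap to the nearest as a share of the range. Chance does this in about 1 in 20 groups. The distant values were, in CPM, IRF9 at 0.191 in EV replicate c, TBX4 at 0.0992 in Ctl replicate c, NRAS at 132 in Ctl replicate b, HSPA8 at 1872 in Ctl replicate a, STIP1 at 165 in Ctl replicate a and VEGFA at 16.2 in EV replicate a. The TBX4 value lay below the floor of 3 counts, 0.298 CPM in that library, so its distance carries no weight. FAS was at 8.43, TGFBR2 at 17.8 and WNT5B at 14.5 CPM in Ctl replicate b. CLDN1 was at 26.6, CLK1 at 30.3 and NDUFA2 at 6.63 CPM in EV replicate a. PRDX1 was at 273, MT-CO3 at 1172 and EEF1A1 at 5725 CPM in EV replicate c. FOXO4 was at 2.58 CPM in EV replicate b. NDUFC1 was at 17.5 and ZNF781 at 41.2 CPM in Ctl replicate a, and EIF1 at 42.7 CPM in Ctl replicate c.

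Of the 60 genes called in opposite directions with TBX2 and TBX5 against the controls, the 6 with the largest direct difference are given here, 1 of them, ANKRD20A5P, in the report as well. TBX2 minus TBX5, on the log2 scale, was -2.42 for KCNK6, -2.14 for CYP4F35P, -2.02 for ENSG00000267324, -1.95 for RHOT1P1, -1.78 for ANKRD20A5P and 1.78 for RPL12P14. Both contrasts share the 6 controls, and the pseudogenes among them may share reads with related genes, which was not tested. The TBX2 call of RPL12P14 was lost with DESeq2.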

How the results depend on the processing

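Of the 261 tested named genes, none changed direction past the threshold under any alternative run, and by library totals 133 calls were lost. Of the scalings, library totals moved the counts most, to 833 higher and 220 lower genes with TBX2, 41 and 0 set apart, and 169, 76 and 440 genes against TBX3, TBX4 and TBX5; the cause was not tested. No scaling moved the median of all genes by more than 0.1. EV against Ctl, 60 genes, gave 29 with DESeq2, 17 by library totals, 126 with no filter, 31 at an adjusted p under 0.05 and 8 with log2 fold changes of 1 or more in size. At an adjusted p under 0.05, 117 lower genes were set apart, and 1208 and 1159 differed from TBX4 and TBX5. Counting only log2 fold changes of 1 or more in size, TBX2 had 376 higher and 79 lower genes, 131 and 15 set apart, and 262, 176 and 272 against TBX3, TBX4 and TBX5; a stricter rule counts fewer by construction.

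With the replicate letter as a block, TBX2 had 2487 higher and 2252 lower genes and 380 and 210 set apart, and EV against Ctl 31. The letters did not pair libraries, with a mean correlation of deviations of -0.00234 for the same letter and 0.00118 for other letters. GC and transcript length corrections, chosen after seeing the data, set apart 418 and 254 and 406 and 232 genes.

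With 1 library left out in turn, higher genes ranged from 2206 to 2569, lower from 1893 to 2345, set apart higher from 314 to 397 and lower from 129 (without TBX2 replicate c) to 213. TBX2 against TBX3 gave 1755 to 2515 genes, against TBX4 1109 (without TBX4 replicate b) to 2004 and against TBX5 1332 to 1858. EV against Ctl gave 22 (without Ctl replicate b) to 230 (without Ctl replicate c). In all 18 leave-outs 176 higher and 56 lower genes remained set apart, and in all 30 alternatives 21 and 0.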
